A study of Mus musculus with 7 samples.

Results

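The 35 genes described here mark Kupffer cells, the macrophages that reside in the liver sinusoids, and the macrophages that enter the injured liver from blood monocytes. They were taken by name, for what they are known to mark, with no threshold on their values, but with earlier results of these data known. They are 35 of the 23347 genes in the liver count table. All 35 passed the filter on low counts, which kept 15179 genes for testing. By role they fall into resident Kupffer genes (7), lipid-associated macrophage genes (5), pan-macrophage genes (6), Fc receptors and small signalling chains (5), monocyte surface genes (5) and genes of the phagosome and lysosome (7). Livers came from 4 B4galt1 flox/flox mice, littermates that carry recombination sites around B4galt1 and served as controls (WT in the sample labels), and from 3 mice labelled B4galt1 hep-/- (B4-HKO in the labels), in which an albumin-promoter Cre is meant to remove this galactosyltransferase gene from hepatocytes only. All 7 were male mice of C57BL/6 background that began the CDAHFD, a high-fat diet that lacks choline and holds amino acids in place of protein and that induces steatohepatitis, at 6 to 8 weeks of age and ate it for 15 weeks. By design macrophages keep an intact B4galt1 gene, so the comparison asks how macrophage transcripts differ in whole liver when the hepatocyte gene is targeted.

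Resident Kupffer cells are seeded before birth, depend on CSF1 receptor signalling, and clear particles, complement-coated bacteria and old red cells from portal blood. In steatohepatitis some of them die, and monocytes that enter the liver take up macrophage identities, among them lipid-associated macrophages, which carry the receptor TREM2 with its signalling partner TYROBP (DAP12) and gather around fat-laden hepatocytes. Both populations share a pan-macrophage programme of surface receptors, lysosomal proteases and oxidase subunits, driven by the ETS factor PU.1. In RNA from whole liver, fewer macrophages and less RNA per macrophage cannot be told apart.

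To show the stretches of sequence beside which the transcripts called below begin, promoters were read from RefSeq on GRCm38.p6, which held windows for 30 of the 35 genes (36 windows of 250 bases before the start). The letters GGAAGT, a core read by ETS factors such as PU.1, were searched on both strands. They were found in 13 of the 36 windows, belonging to 12 genes, against 19.7% of all 32851 promoter windows of this length. Of the 13 genes called lower below that had a window, 6 held it (Folr2, Itgax, Laptm5, Lyz2, Ms4a7 and Vsig4), as did 6 of the 17 that were not called. CACGTG, an E-box read by factors such as TFEB, was found in 6.02% of all windows and in 1 member window. This window lay at 1 annotated start of Lgmn, while the window at its other start held no match. No window of these genes held both motifs. The 4 windows shown are those of a resident receptor, the CD11c gene, the most abundant of the 35 transcripts and the gene with an E-box, each 5' to 3' on the strand of its gene with the motif in capitals: Vsig4 at chrX:96293439-96293688 (minus strand, motif at -63 from the start), Itgax at chr7:128129300-128129549 (plus strand, motif on both strands), Lyz2 at chr10:117282273-117282522 (minus strand, motif at -100) and Lgmn at chr12:102439093-102439342 (minus strand, motif at -49).
Vsig4: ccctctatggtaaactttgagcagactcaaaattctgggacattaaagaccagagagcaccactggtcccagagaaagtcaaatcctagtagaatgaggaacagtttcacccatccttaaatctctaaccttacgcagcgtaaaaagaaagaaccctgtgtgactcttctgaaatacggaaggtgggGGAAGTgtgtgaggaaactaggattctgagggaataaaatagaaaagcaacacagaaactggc
Itgax: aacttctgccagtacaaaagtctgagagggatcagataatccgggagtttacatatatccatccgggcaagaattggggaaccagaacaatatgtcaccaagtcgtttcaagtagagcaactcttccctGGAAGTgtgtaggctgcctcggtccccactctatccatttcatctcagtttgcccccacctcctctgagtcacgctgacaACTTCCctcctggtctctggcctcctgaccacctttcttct
Lyz2: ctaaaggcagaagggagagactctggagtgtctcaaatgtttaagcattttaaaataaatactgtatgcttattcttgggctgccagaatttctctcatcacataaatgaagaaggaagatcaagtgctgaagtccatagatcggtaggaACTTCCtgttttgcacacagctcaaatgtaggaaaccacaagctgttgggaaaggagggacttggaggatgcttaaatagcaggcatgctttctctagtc
Lgmn: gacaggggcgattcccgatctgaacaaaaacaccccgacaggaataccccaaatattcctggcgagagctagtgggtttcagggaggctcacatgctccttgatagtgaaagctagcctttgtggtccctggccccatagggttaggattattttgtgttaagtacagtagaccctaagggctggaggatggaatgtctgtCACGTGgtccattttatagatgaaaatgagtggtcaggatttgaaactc
A match is a description of these letters only, and binding was not measured.

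Total counts were 37838654 to 39668509 in flox/flox livers and 30608271 to 34586588 in livers labelled hep-/-, and 3 counts in a library correspond to 0.0690 to 0.0987 CPM (TMM-normalized counts relative to library size, the scale of all CPM values below). Mitochondrially encoded transcripts took 3.88% to 8.0% of counts in flox/flox livers and 14.4% to 22.6% in livers labelled hep-/-. B4galt1 itself was measured at 48.7, 52.95, 49.2 and 51.6 CPM in flox/flox replicates 1 to 4 and at 28.4, 23.9 and 53.7 CPM in replicates 1 to 3 labelled hep-/-, so that replicate 3 was not reduced, and every direction below is that of the libraries with this label (log2 fold change -0.52, SE 0.26, edgeR adjusted p = 0.181). Calls required both an absolute log2 fold change over 0.58 and an adjusted p under 0.05, where p came from the quasi-likelihood test of edgeR and was adjusted by the Benjamini-Hochberg method over all 15179 genes. Over all genes tested, 7.83% were called lower and 8% higher in livers labelled hep-/-, and the median log2 fold change was 0.02. On log2(FPKM + 1), where values are divided by a total that includes mitochondrial transcripts, the same thresholds called 1733 genes lower and 561 higher of 10914, against 1189 and 1215 here.

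Many macrophage transcripts were lower in livers labelled hep-/-. Of the 35 genes, 16 were called lower and none higher (edgeR), against 7.83% and 8% of all genes tested. At an unadjusted p under 0.05 from edgeR, 25 were lower and none higher, against 16.1% and 16.8% of all genes. The median log2 fold change over the 35 was -0.83, and 31 had a fitted value below 0, against 48.7% of all genes. Values of the groups did not overlap, with every liver labelled hep-/- below every flox/flox liver, for 21 genes, against 15% of all genes, and for no gene did they lie apart the other way (13.6% of all genes). The genes called were Vsig4, Marco, Folr2, Gpnmb, Itgax, Trem2, Adgre1, Cd68, Msr1, Fcgr3, Tyrobp, Ms4a7, Lyz2, Ctss, Lgmn and Laptm5. Calls were present in every role group: 3 of 7 resident, 3 of 5 lipid-associated, 3 of 6 pan-macrophage, 2 of 5 Fc receptor, 1 of 5 monocyte surface and 4 of 7 phagosome and lysosome genes.

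**Figure D1:**
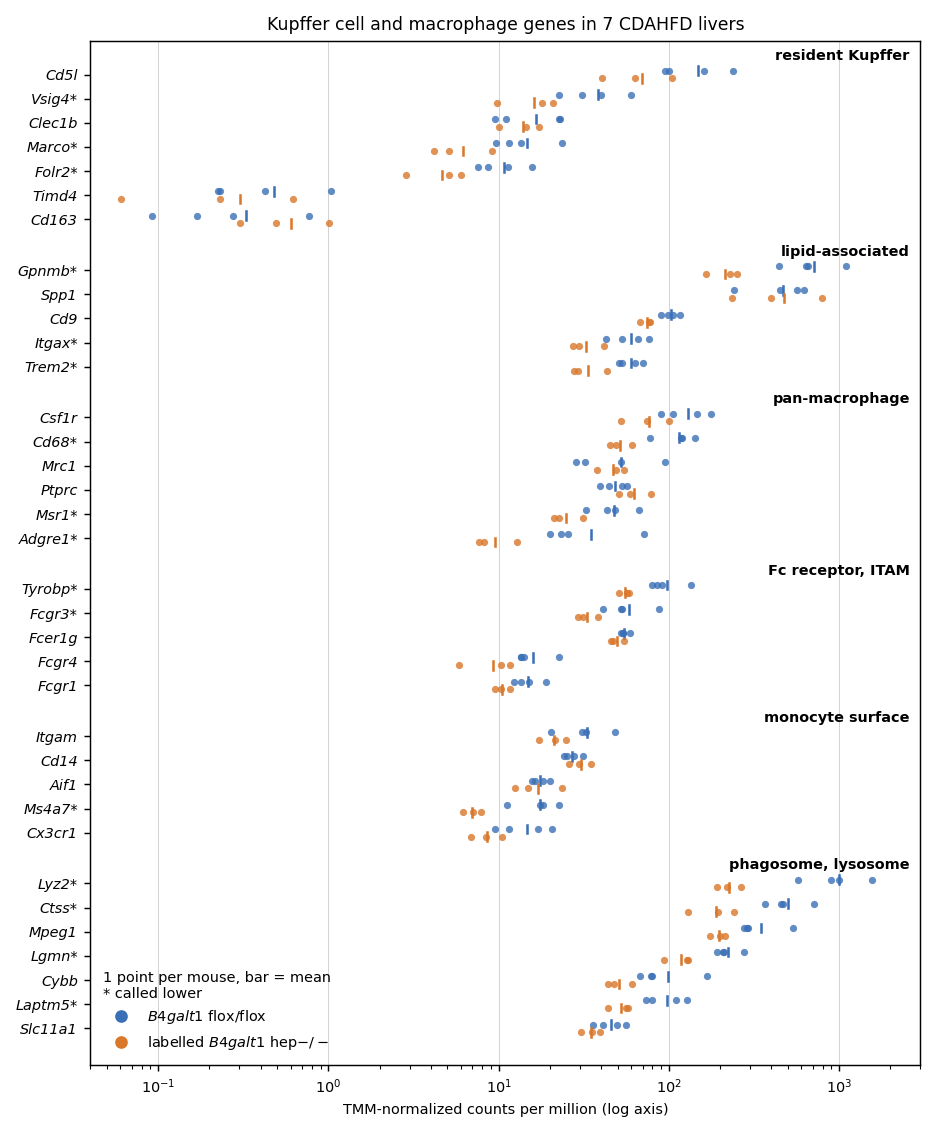
TMM-normalized CPM (log axis) of the 35 genes, grouped by role, with 1 point per mouse, a vertical bar at each group mean and an asterisk on genes called lower. Flox/flox livers (blue, n = 4) lie above livers labelled hep-/- (orange, n = 3) without overlap for 21 genes, while Spp1, Ptprc, Cd14, Aif1 and Cd163 are among those whose points mix.

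The count of calls rested in part on single livers. Without flox/flox replicate 3 it was 7 of 35, with 4.71% of all genes called lower, and without hep-/- replicate 3 it was also 7, with 7.51%. Without flox/flox replicate 2 it was 9, with 3.16%. The median over the 35 genes stayed between -0.93 and -0.61 whichever of the 7 livers was left out. Lyz2, Ctss, Gpnmb and Ms4a7 were called in all 20 alternative analyses.

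**Figure D2:**
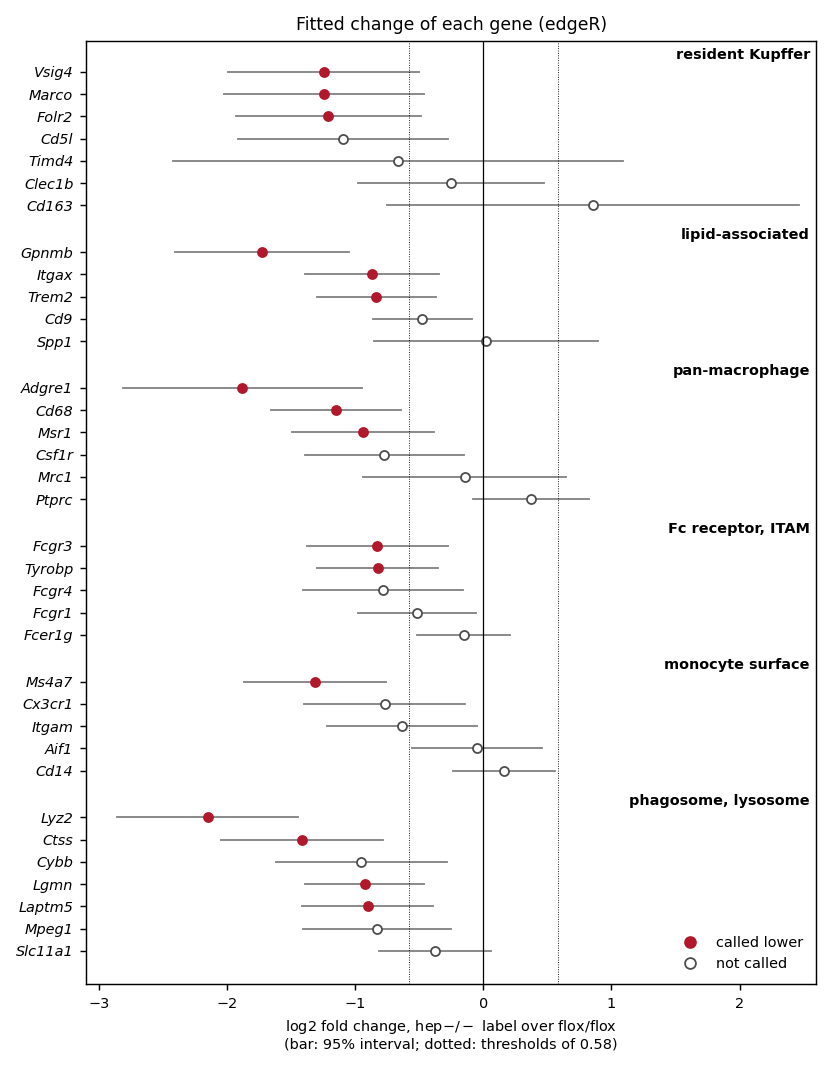
Fitted log2 fold change of each of the 35 genes (labelled hep-/- over flox/flox, edgeR), with horizontal bars for the 95% interval and dotted lines at the thresholds of 0.58. Filled points mark the 16 genes called lower, from Tyrobp at -0.82 to Lyz2 at -2.15, and open points the 19 not called, of which Ptprc, Cd14, Spp1 and Cd163 lie above 0.

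Among the resident Kupffer genes, the receptors Vsig4, Marco and Folr2 fell, while Timd4, Clec1b, Cd5l and Cd163 did not pass the test. Vsig4 encodes the complement receptor CRIg, which captures complement-coated bacteria from blood. Its CPM was 22.7, 30.9, 59.9 and 39.7 in flox/flox replicates 1 to 4 and 20.8, 9.71 and 17.96 in replicates 1 to 3 labelled hep-/-. The lowest flox/flox liver lay just above the highest of the other group, and the means were 38.3 ± 15.99 (SD, n = 4) and 16.2 ± 5.78 (SD, n = 3; log2 fold change -1.24, SE 0.34, edgeR adjusted p = 0.0316). For Marco, a scavenger receptor with a collagen-like stalk that binds bacteria and modified lipoproteins, values were 13.5, 11.5, 23.7 and 9.66 CPM against 9.19, 4.19 and 5.13 CPM. Here too the groups lay apart, by a narrow margin at replicate 1 of the hep-/- label (log2 fold change -1.24, SE 0.36, edgeR adjusted p = 0.0379). Folr2, the folate receptor beta of resident macrophages, gave 8.60, 7.55, 15.7 and 11.3 CPM in flox/flox livers and 6.04, 2.87 and 5.10 CPM in livers labelled hep-/-, again without overlap (log2 fold change -1.21, SE 0.33, edgeR adjusted p = 0.0312). A two-sided exact permutation test over the 35 splits of the mice gave p = 0.0286 for Marco and for Folr2, the smallest value it can give, and p = 0.0571 for Vsig4.

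Cd5l, which encodes the secreted macrophage apoptosis inhibitor AIM, was the most abundant resident transcript on the per-length scale of FPKM. It was measured at 100.1, 94.9, 237.7 and 160.1 CPM in flox/flox livers and 104.5, 40.6 and 63.2 CPM in livers labelled hep-/-. Replicate 1 of the hep-/- label exceeded flox/flox replicates 1 and 2, so the groups overlapped (log2 fold change -1.09, SE 0.38, edgeR adjusted p = 0.0675). Clec1b, which encodes the podoplanin receptor CLEC-2, was found at 9.50, 11.1, 22.98 and 22.7 CPM against 17.2, 10.1 and 14.4 CPM, with 2 flox/flox livers above all 3 labelled livers and 1 below them (log2 fold change -0.25, 95% interval -0.98 to 0.47, edgeR adjusted p = 0.630). Timd4, the phosphatidylserine receptor of long-lived Kupffer cells, and Cd163, the haemoglobin-haptoglobin receptor, were both near the limit of detection in these livers, with 2 to 44 and 4 to 33 counts per library. Timd4 was at 0.230, 0.226, 1.03 and 0.424 CPM and 0.617, 0.0603 and 0.230 CPM, and its value of 0.0603 in replicate 2 of the hep-/- label lies under the level of 3 counts. Cd163 was at 0.0920, 0.276, 0.773 and 0.170 CPM and 1.01, 0.302 and 0.493 CPM, and its log2 fold change of 0.86 had a 95% interval of -0.75 to 2.46 (edgeR adjusted p = 0.445). The 95% interval of Timd4 ran from -2.42 to 1.09, so that neither gene's direction could be told.

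The 3 resident calls did not hold without flox/flox replicate 3, hep-/- replicate 2 or hep-/- replicate 3. Leaving out these livers in that order gave Vsig4 log2 fold changes of -0.94, -0.98 and -1.33 (edgeR adjusted p = 0.0708, 0.0869 and 0.0592), Marco -0.91, -1.03 and -1.13 (edgeR adjusted p = 0.0862, 0.110 and 0.0989) and Folr2 -0.97, -0.96 and -1.29 (edgeR adjusted p = 0.0737, 0.0868 and 0.0571). The edgeR adjusted p was also above 0.05 for Vsig4 and Marco without flox/flox replicate 2 (0.0550 and 0.0657) and for Vsig4 and Folr2 without flox/flox replicate 4 (0.0608 and 0.0629). Cd5l went the other way and was called without flox/flox replicate 1 (-1.24, edgeR adjusted p = 0.0467) and without hep-/- replicate 1 (-1.52, edgeR adjusted p = 0.0352).

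Of the lipid-associated macrophage genes, Trem2, Gpnmb and Itgax fell, and Cd9 and Spp1 did not pass the test. Gpnmb, a transmembrane glycoprotein of lysosomes in lipid-laden macrophages, had the largest difference of the 5. Its CPM was 656.2, 639.9, 1098.1 and 442.9 in flox/flox livers and 165.3, 228.1 and 250.8 in livers labelled hep-/-. Every flox/flox liver exceeded the highest of the other group by a wide margin, and the means were 709.3 ± 276.8 (SD, n = 4) and 214.7 ± 44.3 (SD, n = 3), a 3.30-fold difference (log2 fold change -1.72, SE 0.31, edgeR adjusted p = 0.00691). Trem2, the lipid-sensing receptor that gives these macrophages their name in many studies, was at 63.2, 53.1, 70.6 and 51.2 CPM against 27.7, 43.2 and 29.3 CPM. The groups lay apart, with replicate 2 of the hep-/- label closest to the flox/flox range (log2 fold change -0.83, SE 0.21, edgeR adjusted p = 0.0254; exact permutation p = 0.0286). Itgax, which encodes the integrin CD11c, was at 66.1, 53.2, 76.8 and 42.7 CPM against 29.4, 41.3 and 27.2 CPM (log2 fold change -0.87, SE 0.24, edgeR adjusted p = 0.0320). The same replicate 2 came within a small distance of flox/flox replicate 4.

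Cd9, a tetraspanin of the cell surface that other liver cells also make, was at 89.98, 105.7, 116.8 and 98.5 CPM in flox/flox livers and 77.3, 76.7 and 68.02 CPM in livers labelled hep-/-. The groups did not overlap, yet the difference passed neither threshold (log2 fold change -0.47, SE 0.18, edgeR adjusted p = 0.0895; exact permutation p = 0.0286). Spp1 encodes osteopontin, a secreted matrix protein made by lipid-associated macrophages and by bile duct cells. It was at 451.3, 620.9, 563.9 and 239.5 CPM and 395.9, 796.7 and 236.0 CPM, with the highest value in replicate 2 of the hep-/- label and the lowest in replicate 3 (log2 fold change 0.02, 95% interval -0.85 to 0.90, edgeR adjusted p = 0.977). Its fitted value was -0.57 without that replicate 2, 0.12 without flox/flox replicate 3 and -0.20 without flox/flox replicate 4, none of them called. The same replicate 2 was also highest of the 7 livers in all 5 cholangiocyte markers summed here (Krt7, Krt19, Epcam, Sox9 and Cftr), none of them at 0. Their summed CPM was 77.5 there, against 14.2 to 40.7 in flox/flox livers and 19.5 and 23.1 in labelled replicates 1 and 3. None of these 5 markers was called, and their part in the Spp1 value was not tested.

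Gpnmb was called whichever liver was left out, with log2 fold changes of -1.89 to -1.43. Trem2 lost its call without flox/flox replicate 2 (-0.88, edgeR adjusted p = 0.0588), flox/flox replicate 3 (-0.74, 0.0595), hep-/- replicate 1 (-0.72, 0.0750) and hep-/- replicate 3 (-0.76, 0.0643). Itgax lost it without flox/flox replicates 1, 2 and 3 (edgeR adjusted p = 0.0523, 0.0700 and 0.0747) and hep-/- replicates 1 and 3 (0.0857 and 0.0847), with log2 fold changes of -0.92 to -0.73 in these fits.

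Set against each other, the resident and the lipid-associated genes both had lower mean levels in livers labelled hep-/-. The mean log2(CPM + 0.1) over the 7 resident genes was 2.99 ± 0.61 in the flox/flox group (SD, n = 4) and 2.33 ± 0.64 in the labelled group (SD, n = 3), a difference of -0.67 on that scale. Over the 5 lipid-associated genes it was 7.32 ± 0.34 and 6.54 ± 0.32, a difference of -0.78. The groups overlapped on both means. In the resident mean labelled replicate 1, at 2.96, exceeded flox/flox replicates 1 and 2, at 2.47 and 2.64. In the lipid-associated mean labelled replicate 2, at 6.91, exceeded flox/flox replicate 4, at 6.88. The median fitted log2 fold change was -1.09 over the resident and -0.83 over the lipid-associated genes, and 0.02 over all genes. Within each liver, the lipid-associated mean minus the resident mean was 4.87, 4.72, 3.87 and 3.87 in flox/flox replicates 1 to 4 and 3.43, 5.24 and 3.97 in replicates 1 to 3 labelled hep-/-. These differences overlapped fully, since the labelled group held both the lowest and the highest liver, and the group means of 4.33 and 4.21 differed by -0.12, less than either SD (0.54 and 0.93). Leaving out Timd4, Cd163 and Spp1, a choice made after their values were seen, gave 1.84 to 2.71 in flox/flox livers and 1.62 to 3.09 in the labelled livers.

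**Figure D3:**
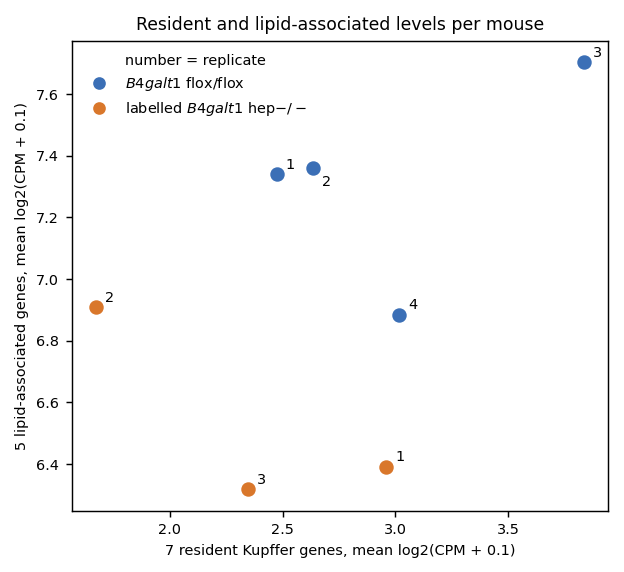
Mean log2(CPM + 0.1) of the 7 resident Kupffer genes (x axis) against that of the 5 lipid-associated genes (y axis), 1 numbered point per liver (blue flox/flox, n = 4; orange labelled hep-/-, n = 3). On the y axis the labelled livers reach 6.91 at most and flox/flox replicate 4 lies at 6.88, whereas flox/flox replicate 3 is highest on both axes and labelled replicate 2 is lowest on the x axis.

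Among the pan-macrophage genes, Adgre1, Cd68 and Msr1 fell, and Csf1r, Mrc1 and Ptprc did not pass the test. Adgre1 encodes the adhesion receptor F4/80, the usual stain for mouse macrophages. It was at 25.6, 23.2, 71.3 and 20.1 CPM in flox/flox livers and 12.7, 8.14 and 7.70 CPM in livers labelled hep-/-, with flox/flox replicate 3 far above the rest and all 4 flox/flox livers above the other group (log2 fold change -1.88, SE 0.43, edgeR adjusted p = 0.0159). Without that liver its log2 fold change was -1.27 and it was still called (edgeR adjusted p = 0.0152). Cd68, a glycoprotein of macrophage lysosomes, was at 119.1, 118.0, 142.8 and 77.2 CPM against 48.96, 60.4 and 45.3 CPM. Its groups were well separated, and it was called whichever liver was left out (log2 fold change -1.15, SE 0.23, edgeR adjusted p = 0.0103). Msr1, the class A scavenger receptor for modified lipoproteins, was at 32.5, 43.04, 67.1 and 48.03 CPM against 31.1, 21.1 and 22.5 CPM and the groups nearly touched (log2 fold change -0.94, SE 0.25, edgeR adjusted p = 0.0303). It lost its call without any of flox/flox replicates 2, 3 and 4 (edgeR adjusted p = 0.0638, 0.0663 and 0.0595) or of hep-/- replicates 2 and 3 (0.0872 and 0.0789), with log2 fold changes of -0.98 to -0.73.

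Csf1r, the receptor for CSF1 and IL-34 on which these cells depend, was at 146.1, 105.9, 177.4 and 89.3 CPM and 52.6, 100.4 and 74.6 CPM, and replicate 2 of the hep-/- label exceeded flox/flox replicate 4 (log2 fold change -0.77, SE 0.28, edgeR adjusted p = 0.0834). Without that replicate 2 it was called (-1.03, edgeR adjusted p = 0.0495). Ptprc, which encodes CD45 of all leukocytes, was one of 4 genes fitted above 0, at 52.7, 39.3, 56.8 and 44.6 CPM against 77.98, 50.9 and 58.98 CPM. The highest and the second highest values were both from livers labelled hep-/-, while replicate 2 of that label lay among the flox/flox livers (log2 fold change 0.37, 95% interval -0.08 to 0.82, edgeR adjusted p = 0.231). Mrc1, the mannose receptor, which sinusoidal endothelial cells carry as well, was at 28.6, 32.3, 95.2 and 52.4 CPM and 48.9, 37.6 and 54.7 CPM. Flox/flox replicate 3 alone exceeded all others by a wide margin, and without it the fitted log2 fold change of -0.15 (edgeR adjusted p = 0.808) became 0.32 (edgeR adjusted p = 0.443). The same liver had a summed CPM of 372 over 8 endothelial markers, none of them at 0 in any liver, against 87.9 to 125 in the other flox/flox livers and 115 to 132 in livers labelled hep-/-. Of those markers 7 were fitted below 0, with a median log2 fold change of -0.63 over the 8. Kdr, the VEGF receptor, was called lower (log2 fold change -1.33, edgeR adjusted p = 0.0441). Clec4g, a lectin of sinusoidal endothelium and the most abundant of the 8 by FPKM, was at 19.9, 20.03, 90.9 and 28.4 CPM and 20.4, 24.5 and 20.4 CPM without being called (log2 fold change -0.87, edgeR adjusted p = 0.222). Stab2, a scavenger receptor of the same cells, was the 1 marker fitted above 0 (log2 fold change 0.45, edgeR adjusted p = 0.238). The part of these cells in the macrophage values was not tested.

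The Fc receptors bind antibody-coated particles and signal through the small chain FcRγ (Fcer1g). DAP12 (Tyrobp) is the chain that partners TREM2, and the ITAM motifs of both chains recruit the kinase SYK. Tyrobp and Fcgr3 fell, and Fcgr1, Fcgr4 and Fcer1g did not pass the test. Tyrobp was at 91.2, 85.5, 133.9 and 79.6 CPM in flox/flox livers and 56.9, 57.9 and 50.6 CPM in livers labelled hep-/-. All 3 labelled livers lay close together, below the lowest flox/flox liver (log2 fold change -0.82, SE 0.22, edgeR adjusted p = 0.0272; exact permutation p = 0.0286). Fcgr3, a low-affinity activating IgG receptor, was at 52.4, 53.3, 87.2 and 40.7 CPM against 29.4, 31.3 and 38.2 CPM, with flox/flox replicate 4 just above the other group (log2 fold change -0.83, SE 0.25, edgeR adjusted p = 0.0467). Fcgr2b, a near relative with shared sequence, had a log2 fold change of -0.16, and reads that fit both genes may have been divided between them. Fcgr4 and the high-affinity receptor Fcgr1 did not overlap between groups either, at 14.1, 13.5, 22.7 and 13.5 against 10.3, 5.82 and 11.7 CPM for Fcgr4 (log2 fold change -0.78, edgeR adjusted p = 0.0811) and at 12.3 to 18.9 against 9.48 to 11.6 CPM for Fcgr1 (log2 fold change -0.52, edgeR adjusted p = 0.112). Fcer1g was at 59.3, 53.4, 53.95 and 52.1 CPM and 45.8, 54.8 and 47.04 CPM, and replicate 2 of the hep-/- label lay within the flox/flox range (log2 fold change -0.15, 95% interval -0.52 to 0.21, edgeR adjusted p = 0.556). Its interval and that of Tyrobp, -1.29 to -0.35, overlapped, and the difference between the 2 chains was not tested.

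The Fcgr3 call was lost without each of the 7 livers except flox/flox replicate 4, with log2 fold changes of -0.95 to -0.57 and edgeR adjusted p of 0.0503 (without flox/flox replicate 1), 0.0889 (2) and 0.0937 (3) and of 0.110, 0.107 and 0.0573 without hep-/- replicates 1, 2 and 3. Tyrobp lost its call without flox/flox replicate 2 (-0.88, edgeR adjusted p = 0.0580) and 3 (-0.63, 0.0567) and without hep-/- replicate 1 (-0.85, 0.0556) and 3 (-0.77, 0.0654).

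Of the monocyte surface genes, Ms4a7 fell and the other 4 did not pass the test. Ms4a7, a membrane protein of the MS4A family of monocyte-derived and resident macrophages, was at 17.6, 18.3, 22.5 and 11.2 CPM in flox/flox livers and 7.05, 6.15 and 7.83 CPM in livers labelled hep-/-. The labelled livers were tightly grouped below all flox/flox livers, with means of 17.4 ± 4.69 (SD, n = 4) and 7.01 ± 0.838 (SD, n = 3; log2 fold change -1.31, SE 0.25, edgeR adjusted p = 0.00890). Itgam, the integrin CD11b, and Cx3cr1, the fractalkine receptor, had fitted values of -0.63 (edgeR adjusted p = 0.124) and -0.77 (edgeR adjusted p = 0.0880), at 20.2 to 48.05 against 17.2 to 24.97 CPM and at 9.47 to 20.6 against 6.92 to 10.4 CPM, and overlapped between groups. Cd14, the lipopolysaccharide co-receptor, was at 27.6, 31.3, 25.1 and 24.2 CPM and 29.7, 26 and 35.1 CPM, with the highest value in replicate 3 of the hep-/- label (log2 fold change 0.16, 95% interval -0.23 to 0.56, edgeR adjusted p = 0.568). Aif1, which encodes the cytoskeletal protein IBA1, was at 18.3, 16.4, 15.6 and 19.9 CPM and 23.6, 14.8 and 12.5 CPM, and the labelled livers spanned the flox/flox values on both sides (log2 fold change -0.05, 95% interval -0.56 to 0.46, edgeR adjusted p = 0.907).

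Of the phagosome and lysosome genes, Lyz2, Ctss, Lgmn and Laptm5 fell, and Lyz2 had the largest difference of the 35 genes. Lyz2, which encodes the lysozyme of macrophages and monocytes, was at 892.6, 995.0, 1555.2 and 573.3 CPM in flox/flox livers and 220.3, 192.1 and 265.7 CPM in livers labelled hep-/-. Even the lowest flox/flox liver lay far above the highest labelled one, and the means differed 4.44-fold (log2 fold change -2.15, SE 0.32, edgeR adjusted p = 0.00380; exact permutation p = 0.0286). Lyz1, a near copy from which reads may not be told apart, was called lower too, at 2.21, 2.16, 2.76 and 1.36 against 0.747, 0.483 and 0.493 CPM (log2 fold change -1.88, edgeR adjusted p = 0.0168). Ctss encodes cathepsin S, the protease that trims the invariant chain of MHC class II. Its CPM was 454.0, 467.4, 714.7 and 366.1 against 193.5, 129.1 and 241.9, apart in every liver (log2 fold change -1.41, SE 0.29, edgeR adjusted p = 0.0106). Lgmn, the lysosomal asparaginyl protease legumain, was at 192.4, 208.4, 277.4 and 210.4 CPM against 128.1, 93.8 and 129.1 CPM, with every labelled liver below every flox/flox liver (log2 fold change -0.92, SE 0.21, edgeR adjusted p = 0.0168). Lyz2, Ctss and Lgmn were called whichever liver was left out. Laptm5, a lysosomal membrane protein of blood cells, was at 110.8, 79.6, 128.1 and 73.2 CPM against 56.2, 57.3 and 43.7 CPM (log2 fold change -0.90, SE 0.23, edgeR adjusted p = 0.0261), and lost its call without flox/flox replicate 3 (-0.75, edgeR adjusted p = 0.0620) and hep-/- replicate 3 (-0.80, edgeR adjusted p = 0.0698).

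Mpeg1, the pore-forming perforin-2 of phagosomes, and Cybb, the catalytic subunit of the phagocyte NADPH oxidase, lay apart between groups but missed the threshold. Mpeg1 was at 288.8, 292.9, 537.2 and 274.8 CPM and 214.3, 174.4 and 199.0 CPM (log2 fold change -0.83, SE 0.26, edgeR adjusted p = 0.0524). Cybb was at 80, 78.8, 166.8 and 67.4 CPM and 61, 43.8 and 47.5 CPM (log2 fold change -0.95, SE 0.31, edgeR adjusted p = 0.0544), and it was called without flox/flox replicate 1 (-1.04, edgeR adjusted p = 0.0493) or 4 (-1.10, edgeR adjusted p = 0.0486). In both genes flox/flox replicate 3 stood far above the other 3 flox/flox livers. Slc11a1, the phagosomal metal transporter NRAMP1, was at 36.0 to 56.0 CPM in flox/flox livers and 30.5 to 39.5 CPM in livers labelled hep-/-, and overlapped (log2 fold change -0.38, edgeR adjusted p = 0.211).

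**Figure D4:**
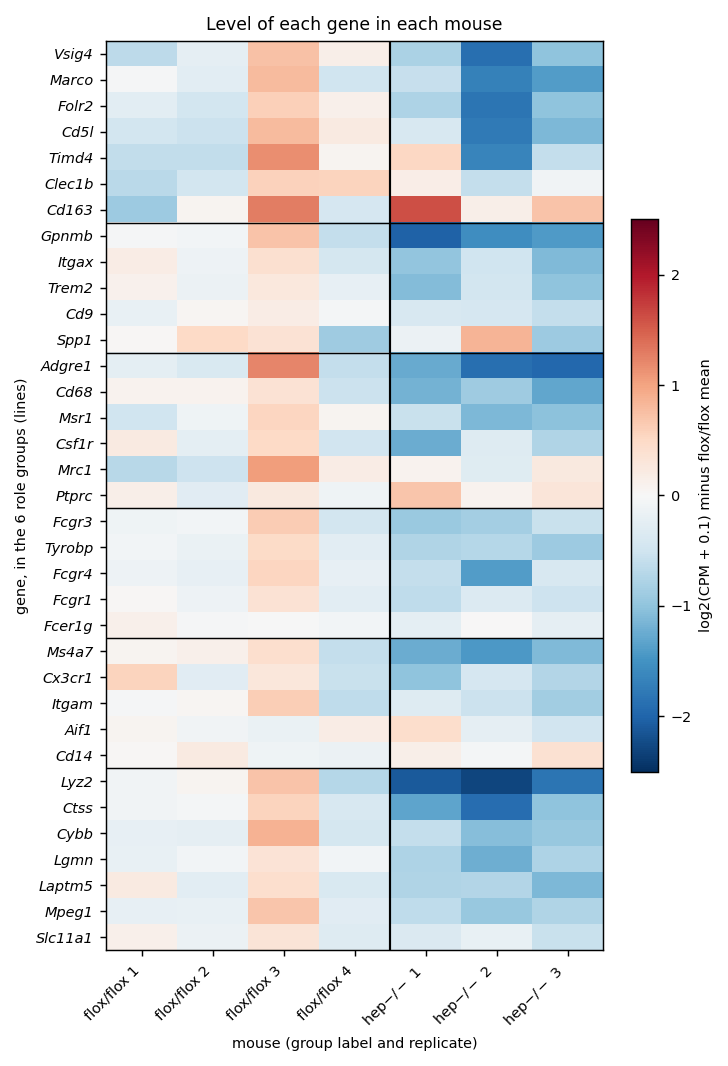
Level of each of the 35 genes in each of the 7 livers, as log2(CPM + 0.1) minus the mean of the 4 flox/flox livers (colour scale from blue, lower, to red, higher), with horizontal lines between the 6 role groups and a vertical line between the mouse groups. Flox/flox replicate 3 is the highest flox/flox liver in 30 of 35 rows, and the blue of the labelled livers is deepest for Lyz2, Adgre1 and Gpnmb.

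The macrophage level varied among flox/flox livers as well. Together the 35 genes took 0.491%, 0.450%, 0.732% and 0.312% of all counts in flox/flox replicates 1 to 4 and 0.206%, 0.271% and 0.191% in replicates 1 to 3 labelled hep-/-, so on this scale every labelled liver was below every flox/flox liver. All counts include mitochondrial transcripts, which took 3.88% to 8.0% in flox/flox livers and 14.4% to 22.6% in labelled livers. Their part in this separation was not tested. Flox/flox replicate 3 held the highest flox/flox value for 30 of the 35 genes and replicate 4 the lowest for 22. Relative to the mean of the other 3 flox/flox livers, replicate 3 was 3.10-fold higher for Adgre1, 2.21-fold for Cybb and 2.05-fold for Marco, but 0.982-fold for Fcer1g and 0.859-fold for Aif1.

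On the per-length scale of FPKM, on which levels of different genes can be set side by side, Lyz2 had the highest mean of the 35 genes in flox/flox livers, followed by Ctss, Spp1, Gpnmb and Tyrobp. In livers labelled hep-/- Spp1 came first, followed by Lyz2, Ctss, Tyrobp and Fcer1g, but the first rank rested on replicate 2. Without that liver the mean was 170.5 FPKM for Spp1 and 204.7 for Lyz2. FPKM, too, is divided by a total that includes mitochondrial transcripts. The summed FPKM of the 35 genes was 2936, 2751, 4295 and 1835 in flox/flox replicates 1 to 4 and 1170, 1551 and 1084 in replicates 1 to 3 labelled hep-/-. Of that sum, Lyz2 made up 32.9, 34.4, 36.98 and 27.7% in flox/flox livers and 16.1, 12.7 and 20.4% in labelled livers. Spp1 made up 10.6, 13.7, 8.55 and 7.37% and 18.5, 33.6 and 11.5%, highest in labelled replicate 2, the liver with the most cholangiocyte marker RNA, and with labelled replicate 3 inside the flox/flox range. Fcer1g made up 3.51, 2.96, 2.06 and 4.04% and 5.38, 5.82 and 5.80%, and Ptprc 0.349, 0.244, 0.243 and 0.388% and 1.03, 0.605 and 0.814%. The shares of Lyz2 were lower, and those of Fcer1g and Ptprc higher, in every labelled liver than in every flox/flox liver. These shares depend on each other, since a lower share of Lyz2 raises those of the rest, and were not tested.

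**Figure D5:**
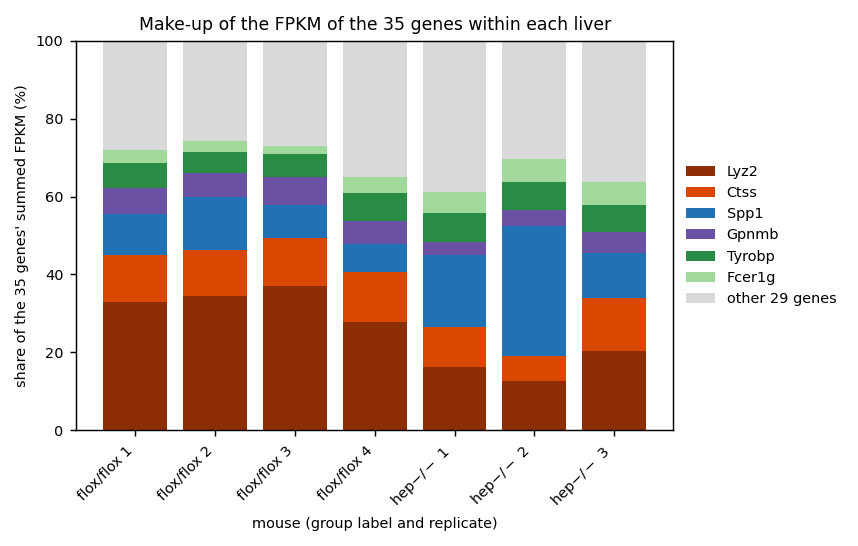
Stacked bars of the share (%) that 6 genes and the other 29 together take of the summed FPKM of the 35 genes in each of the 7 livers. The Lyz2 segment covers 27.7% to 37.0% in flox/flox livers and 12.7% to 20.4% in labelled livers, and the Spp1 segment reaches 33.6% in labelled replicate 2.

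Beyond the 35 genes, 78 further genes of the same pathways were listed, 77 of them tested. Of these, 17 were called lower and 2 higher, with a median log2 fold change of -0.40, against 7.83% and 8% of all genes. Among 16 other Kupffer identity genes, 2 were called lower and 1 higher, against 7.83% and 8% of all genes. Their median log2 fold change was -0.27, with 10 fitted below 0 and 6 above. Those called lower were the complement C1q chains C1qb (-1.17, edgeR adjusted p = 0.0128) and C1qc (-1.18, edgeR adjusted p = 0.0140). The remaining chain, C1qa, lay apart between groups at 130.7, 112.6, 130.7 and 121.8 CPM against 76.5, 91.5 and 103.3 CPM but was not called (-0.45, edgeR adjusted p = 0.109). Clec4f, a lectin that in mouse marks Kupffer cells, was at 60.1, 47.6, 102.6 and 87.95 CPM and 62.95, 40.5 and 57.8 CPM, overlapping, with 2 high flox/flox livers (-0.47, 95% interval -1.07 to 0.12, edgeR adjusted p = 0.251). Id1, which encodes an inhibitor of helix-loop-helix factors that endothelial and other cells also make, rose (0.99, edgeR adjusted p = 0.0224).

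Of 10 genes of CSF1 signalling and lineage control, 1 fell and 1 rose, shares near the 7.83% and 8% of all genes. Their median log2 fold change was 0.0008, with 5 fitted below 0 and 5 above. Tgfb1, which encodes the cytokine TGF-β1, fell (-0.85, edgeR adjusted p = 0.0311) and Cebpb, a transcription factor that hepatocytes also express, rose (0.94, edgeR adjusted p = 0.0184). The ligands of CSF1R were not called, with log2 fold changes of 0.40 for Csf1 (edgeR adjusted p = 0.283) and 0.19 for Il34 (edgeR adjusted p = 0.679). Spi1, which encodes PU.1, was at 34.7, 30.1, 36.4 and 29.9 CPM against 25, 23.98 and 20.5 CPM, apart between groups but past neither threshold (-0.50, edgeR adjusted p = 0.0692). In TREM2 signalling 1 of 10 genes fell, the adaptor Blnk (-0.63, edgeR adjusted p = 0.0467), a share near the 7.83% of all genes called lower. Syk (0.18, edgeR adjusted p = 0.599) and the TREM2 ligand Apoe (-0.15, edgeR adjusted p = 0.717), most of which comes from hepatocytes, were not called.

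Of 14 further lipid-associated genes, 6 fell and none rose, against the 7.83% and 8% of all genes called lower and higher. They were the matrix metalloproteinase Mmp12 (-1.53, edgeR adjusted p = 0.00408), the lysosomal proteases Ctsd (-1.47, 0.00626) and Ctsb (-1.09, 0.0120), and the lipid handling genes Cd36 (-1.32, 0.0112), Plin2 (-1.06, 0.0210) and Fabp5 (-0.99, 0.0128). Mmp12, which macrophages make, was at 375.2, 517.5, 641.8 and 410.3 CPM in flox/flox livers and 185.5, 169.3 and 149.8 CPM in labelled livers, wide apart in every liver, while Cd36, Plin2 and the cathepsins are also made by hepatocytes. Lgals3, which encodes galectin-3, was not called (-0.17, edgeR adjusted p = 0.607). Of 13 genes of monocyte entry, 1 fell and none rose, a share near the 7.83% of all genes called lower. It was Itgb2, the β2 chain that pairs with CD11b and CD11c (-1.22, edgeR adjusted p = 0.0120), and the classical monocyte genes were not called. Ccr2, the receptor for the chemokine CCL2, was at 19.2, 15.03, 18.6 and 15 CPM and 19.6, 18.9 and 14.1 CPM, fully overlapping (0.05, 95% interval -0.39 to 0.48, edgeR adjusted p = 0.894), and Ly6c2, which encodes the antigen Ly6C, was at 2.53, 1.41, 2.20 and 1.05 CPM and 1.75, 0.422 and 0.921 CPM (-0.80, 95% interval -1.96 to 0.35, edgeR adjusted p = 0.313).

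Of 9 further Fc, ITAM and inhibitory receptors, 5 fell, against 7.83% of all genes. Siglec1, the sialic acid receptor CD169 of resident macrophages, had the largest difference (-1.65, SE 0.41, edgeR adjusted p = 0.0232), at 13.5, 7.96, 22.5 and 6.64 CPM against 3.44, 3.26 and 5.43 CPM. The others were the β-glucan receptor Clec7a (-1.39, edgeR adjusted p = 0.0299), the lectin Clec4n (-0.87, 0.0478), the inhibitory receptor Cd300a (-1.07, 0.0203) and the neonatal Fc receptor Fcgrt (-0.79, 0.0221), which hepatocytes and endothelial cells also make. Of the 5 other NADPH oxidase genes, 1 fell and none rose, against 7.83% and 8% of all genes, with a median log2 fold change of -0.16. It was Cyba, which encodes the membrane partner of CYBB (-0.87, edgeR adjusted p = 0.0212).

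None of 8 hepatocyte, 8 stellate cell and 5 cholangiocyte markers was called, against 15.8% of all genes called in either direction. Among hepatocyte markers, Alb, the most abundant, was at 57197.4, 90888.4, 62910.9 and 89221.3 CPM and 92031.5, 70085.9 and 112935.1 CPM (log2 fold change 0.29, edgeR adjusted p = 0.561). The summed hepatocyte CPM was 77136 to 116110 in flox/flox livers and 93937 to 147761 in labelled livers, and no marker was at 0. At an unadjusted p under 0.05 from edgeR, Cps1, the first enzyme of the urea cycle, was lower (log2 fold change -0.85, edgeR adjusted p = 0.110), and Apoa1 and Serpina1a, which encode secreted plasma proteins, were higher (log2 fold changes 0.70 and 0.61, edgeR adjusted p = 0.109 and 0.111), against 16.1% and 16.8% of all genes. Among stellate cell markers Dcn, the most abundant, was at 352.7, 381.5, 750.3 and 514.6 CPM and 565.7, 288.3 and 439.8 CPM (log2 fold change -0.21, edgeR adjusted p = 0.661). Of the 5 cholangiocyte markers the most abundant, Epcam, was at 15.5, 16.8, 17.9 and 5.09 CPM and 8.02, 26.3 and 5.26 CPM (log2 fold change -0.06, edgeR adjusted p = 0.946) and was the 1 fitted below 0. The others had log2 fold changes of 0.89 (Krt7), 0.62 (Krt19), 0.57 (Cftr) and 0.28 (Sox9), and the median over the 5 was 0.57. The share of mitochondrial transcripts was higher in every labelled liver than in every flox/flox liver, and its part in the macrophage values was not tested; without the mitochondrially encoded genes 17 of the 35 genes were called lower, against 7.92% of all genes in that fit.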

How the data were processed

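Liver RNA from 7 mice was sequenced, with 1 library per mouse, and groups and replicate numbers came from the sample titles. That each library is a separate animal rests on the labels, and p-values measure the spread between these libraries. The authors extracted RNA with TRIzol, prepared libraries with a VAHTS Universal V6 kit, and deposited counts, whole numbers per gene and mouse without normalization, and FPKM values of the same genes. The submitters' processing notes name fastp, HISAT2, HTSeq, DESeq2, R 3.2.0 and the build GRCm39; the annotation release and the strand setting of the counting are not given in the sources used here, so reads of overlapping genes on opposite strands may not be told apart (among the 35 genes, Clec1b, Folr2, Cd163, Cd9, Cx3cr1, Laptm5 and Cybb overlap other genes). Promoter coordinates are those of RefSeq on GRCm38.p6 and were not converted.

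Genes were kept by filterByExpr (minimum count 10, minimum total 15), scaled by TMM and compared by the quasi-likelihood method of edgeR 4.0.16 (R 4.3.3). The model held the group alone, and p-values were adjusted by Benjamini-Hochberg over all 15179 genes tested. The thresholds of 0.05 and 0.58 follow the study, which used DESeq2. The common biological coefficient of variation was 0.301. Standard errors came from the F statistic, and 95% intervals from the t distribution with edgeR's degrees of freedom. For single genes an exact permutation test (two-sided, difference of group means) over 35 splits was added, with 0.0286 as its smallest p. Levels averaged over a list are means of log2(CPM + 0.1). On simulated counts with 200 genes changed by 2 on the log2 scale, edgeR recovered 99.5% among 15232 genes tested.

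The 35 genes, the pathway and marker lists and the tests were chosen with earlier results of these data known. Named are all 35 genes, every called gene of the pathway lists with 10 others of those lists named whether called or not (Clec4f, C1qa, Csf1, Il34, Ly6c2, Ccr2, Spi1, Syk, Apoe and Lgals3), the most abundant (by mean FPKM) and every called gene of the marker lists, and B4galt1. Lyz1, Fcgr2b, Stab2, Lyve1, Pecam1, Oit3, Cps1, Apoa1, Serpina1a and the cholangiocyte markers named beside Spp1 were added after values were seen. Lilr4b and Trac had no row and were not analysed here, and 1 gene of the cholangiocyte list is not reported here. The alternatives tried were normalization by RLE or the upper quartile, DESeq2 1.42.0, other filters, voom with quality weights per sample, a block for the replicate number, no fold threshold, each mouse left out, and limma 3.58.1 on log2 FPKM, with pseudocounts of 1 or 0.1 over genes reaching FPKM 1 in 3 mice and with 1 over every gene above 0; leaving out flox/flox replicate 3 and hep-/- replicate 3 together was added after the data were seen.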

Additional observations from a re-analysis of the deposited data

Results flagged for a closer look

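In flox/flox replicate 3, 6 genes and 1 summary stood apart from the other 3 flox/flox livers, in that the gap from the highest value to its neighbour took up more of the group's range than Dixon's 95% limit for 4 samples allows. Adgre1 was at 71.34 CPM there, against 20.1 to 25.6 CPM in the other flox/flox livers. Mpeg1 was at 537.2 CPM, against 274.8 to 292.9 CPM. Cybb was at 166.8 CPM, against 67.4 to 80.0 CPM. Fcgr4 was at 22.72 CPM, against 13.5 to 14.1 CPM. Cd300a, an inhibitory receptor of myeloid cells, was at 45.07 CPM, against 21.4 to 25.4 CPM. Clec4g, the sinusoidal endothelial lectin, was at 90.87 CPM, against 19.9 to 28.4 CPM. The mean log2(CPM + 0.1) over all 35 genes was 6.085 in this liver, against 5.29 to 5.42 in the others. By the same limit Krt19 was low in flox/flox replicate 4, at 1.413 CPM against 4.76 to 4.92 CPM, and Xcr1 high in replicate 1, at 1.633 CPM against 0.656 to 0.728 CPM. These 9 came from 91 genes and list means named in the text, and about 1 in 20 groups is marked by chance. Over all 169 tested genes of the 35 and the pathway and marker lists, 25 stood apart, 16 of them as the highest value in flox/flox replicate 3, and 6 of these 16 were endothelial markers. Summed endothelial marker CPM was 372 in the same liver and at most 125 in the other flox/flox livers, and its share of mitochondrial transcripts, 3.88%, was the lowest of the 7.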

How the results depend on the processing

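Over 20 alternative analyses, 692 values of the 35 genes were recomputed: 576 kept their direction and their side of the thresholds, 66 lost a call, 29 gained one and 21 changed sign, the last all in genes that were not called. Direction held for 30 genes in all alternatives that could give a value; Timd4 and Cd163 gave 15 and 17 values. DESeq2, RLE and upper-quartile normalization, each filter on counts, and no fold threshold called 16 to 22 of the 35 genes lower and none higher, with 5.93% to 8.88% of all genes called lower. Both FPKM scales over genes reaching FPKM 1 called 21 lower and none higher, but with 15.9% (pseudocount 1) and 17.8% (0.1) of all genes lower against 5.14% and 5.51% higher. On log2(FPKM + 1) over all genes above 0, counts were 5 of 35, 0 resident and 1 lipid-associated, with 4.74% of all genes called lower. FPKM moved the median of all genes by -0.09 and -0.13 (log2) at pseudocounts of 1 and 0.1. With voom and quality weights 15 genes were lower and 1 higher (Ptprc, 0.60), against 9.53% and 10.2% of all genes, and 1 resident gene was lower. Leaving out 1 liver at a time, between 7 and 16 genes were called lower, 0 to 4 of them resident and 1 to 3 lipid-associated, with 3.16% to 7.51% of all genes called lower. Without flox/flox replicate 3 and hep-/- replicate 3 together, the counts were 6, 0 and 1, with 5.35% of all genes called lower. Fits that leave livers out hold fewer libraries; the cause of the other changes was not tested.

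The sign changes were those of Spp1 (at least 1 count in any mouse, -0.011; FPKM scales, -0.19; voom, -0.37), Timd4 (voom, 0.052; both replicates 3 left out, 0.20), Clec1b (voom, 0.14), Mrc1 (voom, 0.29; both replicates 3 left out, 0.19) and Aif1 (voom, 0.063; both replicates 3 left out, 0.075). With single livers left out, values ran from -0.57 to 0.34 for Spp1, from -0.35 to 0.32 for Mrc1 and from -0.37 to 0.12 for Aif1. The cause was not tested.

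Replicate numbers are shared between groups. Correlations of same-numbered livers were -0.34, -0.03 and 0.08, and labelled replicate 2 correlated most with flox/flox replicate 1 (0.49). Taken as deviations from the means of 4 and 3 livers, these values cannot tell whether the numbers pair the mice. With the replicate number as a block, 12 of 35 genes were lower and none higher, 3 resident and 2 lipid-associated, with 4.05% of all genes called lower; in that replicate block fit Clec1b was at 0.012, Spp1 at -0.36 and Mrc1 at 0.068.

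Timd4 and Cd163 had at most 44 and 33 counts per library, and whether counts or spread between mice set their intervals was not tested.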

Other observations

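Clec9a, a receptor for dead cells on type 1 conventional dendritic cells, rose in livers labelled hep-/-, from 7.68, 4.57, 4.59 and 7.40 CPM in flox/flox replicates 1 to 4 to 14.6, 16.3 and 16.7 CPM in replicates 1 to 3 of that label (log2 fold change 1.39, SE 0.25, edgeR adjusted p = 0.00656). All 3 labelled livers were higher than every flox/flox liver. It was 1 of 7 dendritic markers called, against 15.8% of all genes, and the most abundant of them. Flt3 and Zbtb46, a growth factor receptor and a transcription factor of dendritic cells, also lay apart between groups, as 13.6% of all genes did in that direction, at log2 fold changes of 0.70 and 0.59 without being called (edgeR adjusted p = 0.146 and 0.107), whereas Xcr1, which marks the same type 1 cells as Clec9a, had a log2 fold change of -0.76 (edgeR adjusted p = 0.424) at 0.230 to 1.63 CPM. These 3 were named after their values were seen.

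None of 7 neutrophil, 8 T and NK cell and 6 B and plasma cell markers tested was called, against 15.8% of all genes called in either direction. At an unadjusted p under 0.05 from edgeR, 1 gene of each of these lists was higher and none lower, against 16.8% and 16.1% of all genes. By mean FPKM over the 7 livers the most abundant marker of each list was S100a8 (log2 fold change 0.14, edgeR adjusted p = 0.822), Nkg7 (0.12, edgeR adjusted p = 0.868) and Jchain (0.41, edgeR adjusted p = 0.419). Median log2 fold changes over the lists were 0.14, 0.57 and 0.33.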
